A study of Homo sapiens with 36 samples.

Results

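The 12 arrays described here compare U2OS ER-HA-E2F1 cells transfected with an siRNA against NFYB with cells transfected with a negative control siRNA, at 0 h, before 4-hydroxytamoxifen (OHT) was given. They were chosen by their sample titles and are 12 of the 36 arrays of the series, whose other 24 arrays carry the same siRNAs at 4 h and 8 h of 80 nM OHT. NFYB was depleted with an Ambion siRNA (3 arrays) or a Dharmacon siRNA (3 arrays). The control cells received a Sigma (3 arrays) or a Dharmacon (3 arrays) negative control siRNA. The replicates are called biological replicates in the labels. All 12 cultures were starved of serum for 24 h, beginning 18 h after transfection. U2OS is a human osteosarcoma line, and all cells, controls included, carried a retroviral E2F1 fused to an HA tag and the estrogen receptor domain that OHT binds. Without OHT the fusion protein is held largely inactive. The arrays therefore show what loss of NFYB changed in starved cells of 1 line before E2F1 was switched on.

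NF-Y is a transcription factor made of the subunits NFYA, NFYB and NFYC. NFYB and NFYC pair through histone-like folds, NFYA joins the pair, and the trimer binds the CCAAT box, a short motif common in promoters close upstream of the transcript start. NF-Y is known for its part in cell cycle genes, in genes of the endoplasmic reticulum (ER) and in genes of lipid and amino acid metabolism. E2F factors drive genes of DNA replication and, when over-active, of apoptosis.

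RNA was measured on Affymetrix Human Genome arrays, where a probe set is a group of short probes to 1 transcript region. The deposited value of a probe set is its MAS5 signal, a linear intensity. The median signal of an array lay between 110.9 and 114.6 with NFYB siRNA and between 111.9 and 119.7 with control siRNA. Log2 signals were compared with limma, two-sided, over 22215 probe sets, and a probe set is called higher or lower at an adjusted p under 0.05. Across probe sets, arrays of the same siRNA correlated at r = 0.953 to 0.960, arrays of the other siRNA of an arm at 0.949 to 0.956 and arrays of the other arm at 0.948 to 0.956. The siRNAs of an arm also differed from each other, in a fit with each siRNA at each time as its own group (12 groups). The NFYB siRNAs differed at 1840 probe sets (8.28%, 4.58% higher with Ambion and 3.7% lower). The control siRNAs differed at 3093 (13.9%, 7.06% higher with Sigma and 6.86% lower). These are 3 arrays against 3. In the same fit the arms, 6 arrays against 6, differed at 2503 of the 22215 probe sets. A stricter form is therefore also used: called with the same sign in all 4 pairings of an NFYB siRNA with a control siRNA. It is given for the counts over all probe sets. For single genes and lists it is given only where stated, and silence does not mean that it was met. With the 3 arrays of each siRNA averaged, 2 siRNAs against 2, limma called 0 probe sets, while 1112 had an unadjusted p under 0.05 and the smallest adjusted p was 0.231.

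NFYB, the subunit both siRNAs target, was lower on each of its 3 probe sets. On 218129_s_at, which changed most, its signal was 39.3, 43.3 and 70.0 with the Ambion siRNA and 20.9, 32.4 and 25.3 with the Dharmacon siRNA, against 265, 271 and 318 with the Sigma control siRNA and 132.7, 218 and 211 with the Dharmacon control siRNA. Every NFYB siRNA array lay below every control array. The log2 fold change of -2.68 (SE 0.271, adjusted p = 8.6e-09) is 6.39-fold. The Dharmacon siRNA left less signal than the Ambion siRNA (log2 difference 0.93 for Ambion minus Dharmacon, adjusted p = 0.00186). The other NFYB probe sets, 218128_at and 218127_at, changed by -2.02 and -1.50 (adjusted p = 1.5e-09 and 1.38e-06), again with no overlap between the arms. NFYB was called lower on all 3 at 4 h and 8 h too, where 2.93% and 4.65% of probe sets were called.

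**Figure D1:**
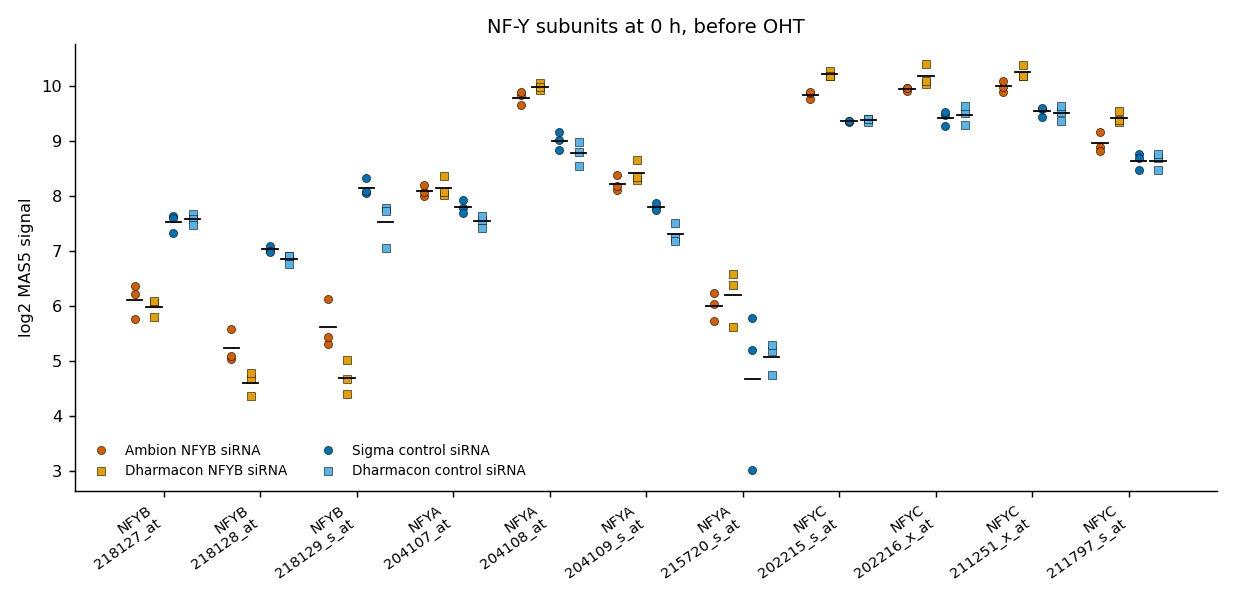
Log2 MAS5 signal (vertical axis) of every probe set of NFYB, NFYA and NFYC (horizontal axis) on the 12 arrays at 0 h, NFYB siRNAs in orange tones and control siRNAs in blue tones. Each point is 1 array and each bar the mean of the 3 arrays of an siRNA. NFYB lies lower and NFYA and NFYC lie higher with NFYB siRNA, except that on NFYA 215720_s_at the arms overlap.

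The partner subunits moved the other way. NFYA, the subunit that contacts the CCAAT box, had a signal on 204108_at of 800.0, 907 and 940.2 with the Ambion siRNA and 1053, 965 and 1000.03 with the Dharmacon siRNA, against 516, 455 and 571 with the Sigma control and 374, 500.4 and 442 with the Dharmacon control. All 6 NFYB siRNA arrays were above all 6 control arrays. NFYA was 1.99-fold higher (log2 fold change 0.99, SE 0.0903, adjusted p = 7.45e-10). Its probe sets 204109_s_at and 204107_at rose by 0.77 and 0.45 (adjusted p = 0.000238 and 0.0155), the last losing its call with siRNA as a random block (adjusted p = 0.0584). On the dim probe set 215720_s_at the change was 1.23 (adjusted p = 0.0993). NFYC, the histone-fold partner of NFYB, was higher on all 4 of its probe sets, by log2 changes of 0.55 to 0.66 (adjusted p = 0.00505 to 5.11e-08). On 202215_s_at, NFYC read 867 to 943 with the Ambion siRNA and 1150 to 1225 with the Dharmacon siRNA, against 645 to 669.5 over the 6 control arrays. The Dharmacon siRNA, which left less NFYB signal, gave the higher NFYC signal (Ambion minus Dharmacon -0.37, adjusted p = 6.13e-05). The difference between their change at 0 h and that at the later times had adjusted p of 0.557 to 0.968 over the 8 probe sets of NFYA and NFYC.

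Over all probe sets, 796 of 22215 were called (3.58%): 352 higher (1.58%) and 444 lower (2.0%), in 283 and 328 genes. Most changes were small, with a median size of 0.50 on the log2 scale among the called. At least 2-fold changes were found for 43 higher and 71 lower probe sets. Of the called probe sets, 783 had the same sign in all 4 pairings of siRNA means. In the stricter form, 201 were called, 73 higher (0.329%) and 128 lower (0.576%), in 66 and 97 genes, and all 201 were among the 796. The NFYB siRNA arrays lay wholly above the control arrays at 233 probe sets (1.05%) and wholly below them at 323 (1.45%).

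SLCO4C1, ABCB1, FADS2 and SFRP1 were among the genes that fell most, each with no overlap between the arms. The 12 greatest decreases were taken from called probe sets with 1 gene name, a mean signal over all 36 arrays in the upper 60% and 1 sign across the pairings. The signal filter uses all times, so it admits probe sets that are dim at 0 h and bright with OHT. By their mean over the 12 arrays at 0 h, 6 of the 24 genes ranked here would lie outside the upper 60% (CDK19, MMP15, KCNA3, HCN2, DPP4 and CEMIP). Below the filter, 16 called probe sets fell and 24 rose by more than the last of the 12 in their direction, on low signals. Of these, MCF2L (-3.37), CXCL12, a chemokine (-2.49), SNAP91, of clathrin coats (-2.08), MMP1 (2.99) and TRPC4, a calcium channel (3.03), were called in all 4 pairings. They were looked up after their values were seen. After NFYB came SLC30A1, which exports zinc from the cell. Its signal was 647, 834 and 810.0 with the Ambion siRNA and 253, 280.0 and 232 with the Dharmacon siRNA, against 949, 899 and 2379 with the Sigma control and 2211, 4246 and 5249 with the Dharmacon control. The arms did not overlap, but the siRNAs within each arm were far apart, and the Ambion siRNA against the Sigma control gave only -0.74 of the pooled -2.29 (SE 0.424, adjusted p = 0.000631). SLC30A1 was not among the genes called in all 4 pairings, and it lost its call without the arrays numbered replicate 3 (-1.93, adjusted p = 0.0705).

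SLCO4C1, an organic anion transporter, had signals of 105 to 137 with the Ambion siRNA and 80.4 to 174 with the Dharmacon siRNA, against 374 to 465.9 with the Sigma control and 403 to 468.5 with the Dharmacon control. No NFYB siRNA array reached the control range, and the arrays of both NFYB siRNAs lay among each other. The log2 fold change was -1.79 (SE 0.148, adjusted p = 1.29e-10). ABCB1, the multidrug efflux pump P-glycoprotein, averaged 49.2 ± 14.5 with NFYB siRNA and 159 ± 21.5 with control siRNA (SD, n = 6 each; -1.75, SE 0.166, adjusted p = 1.95e-09). SFRP1, a secreted Wnt antagonist, was 235 ± 19.1 with NFYB siRNA and 699 ± 69.5 with control siRNA on 202037_s_at (-1.57, SE 0.111, adjusted p = 2.6e-12), and fell by 1.64 on 202036_s_at. TUBB2B, a beta-tubulin, LRRC17, a protein of leucine-rich repeats, and CDHR1, a cadherin of photoreceptors, each changed by -1.63 (adjusted p = 2.37e-06, 7.07e-05 and 7.45e-10). For LRRC17 the control siRNAs themselves differed, at 197 to 245 with Sigma and 532 to 570.2 with Dharmacon, both above the 85.5 to 169 of the NFYB siRNA arrays. OLFML2A, of the olfactomedin family, changed by -1.61 (adjusted p = 0.0244), but 1 NFYB siRNA array overlapped the controls and the call was lost without any 1 of 3 arrays (adjusted p = 0.0567, 0.077 and 0.0928 without Dharmacon control replicate 2, Ambion NFYB replicate 1 or Dharmacon NFYB replicate 3).

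CDK19, a kinase of the Mediator complex, and MMP15, a membrane-bound matrix metalloproteinase, were dim at 0 h in both arms and enter the ranking through their signal with OHT. CDK19 on 211706_s_at read 7.70 to 8.35 with the Ambion siRNA and 5.89 to 21.9 with the Dharmacon siRNA, against 30.6 to 60.7 with the Sigma control and 22.6 to 56.2 with the Dharmacon control. The arms were separate, though 1 Dharmacon siRNA array (21.9) came close to the lowest control (22.6). The fold change of 4.47 (log2 -2.16, SE 0.252, adjusted p = 2.34e-07) therefore rests on signals well under the array median. The brighter CDK19 probe set 212897_at fell by 0.63 (105 ± 17.3 with NFYB siRNA and 161 ± 22.6 with control siRNA, SD, n = 6 each, adjusted p = 0.000161). MMP15 averaged 8.39 ± 2.16 with NFYB siRNA and 32.6 ± 11.9 with control siRNA (SD, n = 6 each; log2 -1.91, SE 0.241, adjusted p = 1.16e-06).

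**Figure D2:**
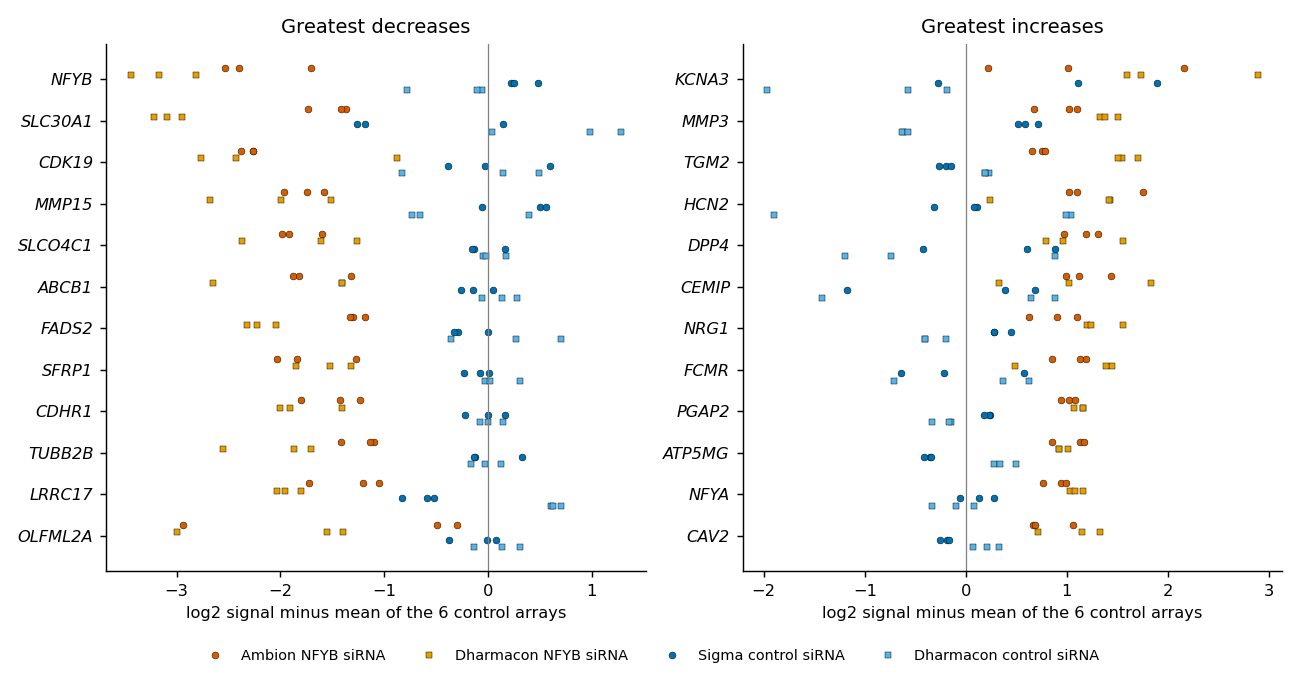
Log2 signal of each array minus the mean of the 6 control arrays (horizontal axis) for the 12 genes that fell most (left) and the 12 that rose most (right), by the rule in the text. Each point is 1 array, NFYB siRNAs in orange tones and control siRNAs in blue tones. Decreases mostly separate the arms, while several increases (KCNA3, HCN2, CEMIP, FCMR) overlap.

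FADS2, the desaturase that starts the synthesis of long polyunsaturated fatty acids, read 621 to 689.9 with the Ambion siRNA and 314 to 379 with the Dharmacon siRNA, against 1243 to 1565 with the Sigma control and 1223 to 2537 with the Dharmacon control. Each NFYB siRNA array was below each control array, and the Dharmacon siRNA gave the lower values. The log2 fold change was -1.73 (SE 0.238, adjusted p = 5.73e-06). The 3 probe sets of FADS1, the next desaturase of the same route, also name the microRNA gene MIR1908 and so were left out of gene counts. They fell by 1.51, 1.43 and 1.44 (adjusted p = 3.78e-10, 3.78e-10 and 1.91e-09), with 6 of 6 arrays below all controls, and were looked up after FADS2 had been seen. By the brightest probe set of each gene, FADS2 alone of 14 measured genes of fatty acid synthesis and desaturation was called at 0 h. Without Sigma control replicate 1 or 3 or any 1 Ambion array, 2 or 3 were. The list median was -0.22 on the log2 scale, and 1 gene had a positive change. Of 20 genes of sterol synthesis 0 were called, with a list median of -0.09. By the most changed probe set of each gene, 3 genes of the fatty acid list and 2 of the sterol list were lower. A probe set of HMGCS1, of sterol synthesis, was lower in all 4 pairings (-0.72, adjusted p = 1.12e-07) and was looked up later.

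Because NF-Y reads the CCAAT box, the promoters of the genes that fell were searched for CCAAT and its reverse complement ATTGG on the printed strand, from 250 bases before to 50 after the transcript start (RefSeq, GRCh38.p14). Of 273 genes that fell and have a promoter in the table, 55.7% held a match, against 35.1% of 239 genes that rose, 37.3% of all 9562 genes tested and 35.7% of all 27305 promoters of the table. The share was 66.3% of 83 for genes lower in all 4 pairings and 42.1% of 57 for genes higher in all 4. Matches that begin 120 to 40 bases before the start, where CCAAT boxes usually lie, were present in 40.3% of the genes that fell, 17.6% of those that rose and 21.1% of all tested. At least 2 matches were found in 28.6%, 10.9% and 13.1% of these sets. The 1 gene called in both directions on different probe sets was left out of the first pair of sets. These shares are descriptions with no test, and a match is not a binding site.

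**Figure D3:**
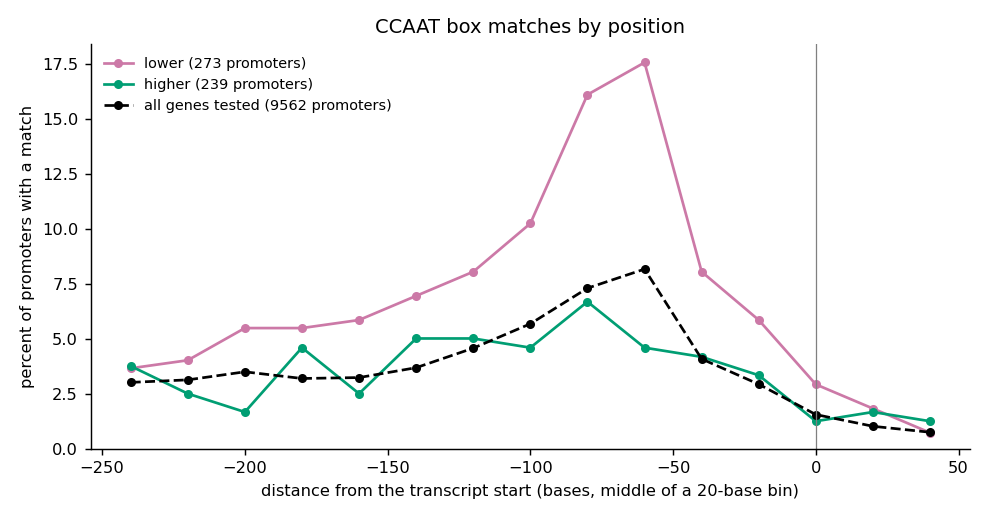
Share of promoters (vertical axis, percent) with a CCAAT or ATTGG match beginning in each 20-base bin, against the distance of the bin's middle from the transcript start (horizontal axis, bases), for genes that fell (273 promoters), genes that rose (239) and all genes tested (9562). The curve of the genes that fell stands above the others in all bins from 230 bases before to 30 bases after the start. It is highest, at 17.6% of promoters, in the bin from 70 to 50 bases before the start.

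The promoters of the first 4 genes of the list that hold a match are shown, with each match in capitals. They show where the letters lie in genes whose values are given above, not where NF-Y binds. Among these 4, only CDK19 (at 80 bases) and MMP15 (at 49) have a match that begins 120 to 40 bases before the start. SLC30A1 lies at chr1:211579112-211579411 on the minus strand, with CCAAT beginning 184 and 130 bases before the start. CDK19 lies at chr6:110815806-110816105 on the minus strand, with CCAAT at 162, 155 and 80 bases before it. MMP15 lies at chr16:58025504-58025803 on the plus strand, with ATTGG 49 bases before the start, and CDHR1 at chr10:84194287-84194586 on the plus strand, with ATTGG beginning 4 bases after it.
SLC30A1: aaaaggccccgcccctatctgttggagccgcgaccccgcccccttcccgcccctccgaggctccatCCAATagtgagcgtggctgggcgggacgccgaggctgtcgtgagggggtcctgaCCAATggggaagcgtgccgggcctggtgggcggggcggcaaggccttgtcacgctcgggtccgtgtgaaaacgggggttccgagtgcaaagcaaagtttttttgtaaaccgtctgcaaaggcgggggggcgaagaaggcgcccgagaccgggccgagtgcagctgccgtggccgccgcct
CDK19: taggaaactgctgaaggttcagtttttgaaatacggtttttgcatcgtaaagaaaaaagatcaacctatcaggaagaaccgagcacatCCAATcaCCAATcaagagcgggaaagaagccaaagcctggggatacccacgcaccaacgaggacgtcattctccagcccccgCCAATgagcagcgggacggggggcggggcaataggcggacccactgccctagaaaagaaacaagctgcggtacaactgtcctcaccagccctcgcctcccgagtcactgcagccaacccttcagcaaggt
MMP15: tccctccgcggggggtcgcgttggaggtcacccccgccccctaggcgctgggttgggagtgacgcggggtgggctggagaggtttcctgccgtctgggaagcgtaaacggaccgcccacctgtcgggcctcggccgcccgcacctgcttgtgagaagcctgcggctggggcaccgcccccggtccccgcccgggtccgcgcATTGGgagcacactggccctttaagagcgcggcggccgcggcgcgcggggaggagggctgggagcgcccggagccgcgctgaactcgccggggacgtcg
CDHR1: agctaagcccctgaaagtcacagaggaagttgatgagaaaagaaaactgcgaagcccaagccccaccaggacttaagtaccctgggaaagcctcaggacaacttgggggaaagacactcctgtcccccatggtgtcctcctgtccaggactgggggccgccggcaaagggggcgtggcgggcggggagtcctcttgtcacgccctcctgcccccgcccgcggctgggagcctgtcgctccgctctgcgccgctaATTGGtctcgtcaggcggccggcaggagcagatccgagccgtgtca
TUBB2B and LRRC17 also hold a match. SLCO4C1, ABCB1, FADS2 and OLFML2A hold no match in the window, and NFYB and SFRP1 were not matched in the table. Here and in the shares above a single promoter per gene was searched. A match at another transcript start of a gene would not be seen.

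PGAP2, TGM2, NRG1 and CAV2 rose with no overlap between the arms. PGAP2, which remodels GPI anchors, varied little within an siRNA, at 599 to 658 with the Ambion siRNA and 655 to 693 with the Dharmacon siRNA, against 352 to 368 with the Sigma control and 246 to 282 with the Dharmacon control. All NFYB siRNA arrays were higher. The log2 fold change was 1.07, with SE 0.126 and adjusted p = 2.56e-07. TGM2, a transglutaminase that cross-links matrix proteins, read 1765 to 1931 and 3176 to 3648 with the Ambion and Dharmacon NFYB siRNAs, against 931 to 1007 and 1275 to 1311 with the Sigma and Dharmacon controls (1.16, SE 0.196, adjusted p = 0.000183). NRG1, a ligand of ErbB receptors, and CAV2, a caveolin, rose by 1.10 and 0.93 (adjusted p = 0.000668 and 0.0009) with no overlap of the arms, and both lost their call without the arrays numbered replicate 3 (adjusted p = 0.0546 and 0.0811). PGAP2, TGM2, NRG1, CAV2, NFYA and the ATP synthase subunit ATP5MG (log2 change 1.0, adjusted p = 0.011) were called in all 4 pairings. ATP5MG lost its call without the arrays numbered replicate 1, 2 or 3 (adjusted p = 0.0638, 0.156 and 0.145). The other 6 of the 12 were not called in all 4.

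Among those 6, MMP3, the matrix protease stromelysin, averaged 1807 ± 358 with NFYB siRNA and 862 ± 380.3 with control siRNA (SD, n = 6 each; 1.17, SE 0.194, adjusted p = 0.000146). Its Sigma control arrays (1132 to 1298) reached the lowest Ambion array (1262), while the Dharmacon controls read 511 to 530.0. DPP4, a surface dipeptidase, changed by 1.13 (adjusted p = 0.00186) and lost its call without the arrays numbered replicate 1 (adjusted p = 0.187). The potassium channel KCNA3, the pacemaker channel HCN2, the hyaluronan-degrading protein CEMIP and the IgM receptor FCMR averaged below the array median in both arms (means of 17.0, 71.0, 22.0 and 110 with NFYB siRNA, and 6.76, 36.5, 11.4 and 54.4 with control siRNA). Their log2 changes of 1.60, 1.16, 1.12 and 1.08 were called (adjusted p = 0.0104, 0.0172, 0.0101 and 0.0356) but not with siRNA as a random block (adjusted p = 0.0572, 0.0917, 0.0656 and 0.136). KCNA3 was also not called with 16 added to each signal (0.52, adjusted p = 0.105), HCN2 not without Dharmacon control replicate 3 or Ambion NFYB replicate 3 (0.78 and 1.04, adjusted p = 0.0516 and 0.0504), and FCMR not without any 1 of 7 of the 12 arrays (adjusted p of 0.0563 to 0.097).

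Genes of ER protein folding were lower. Of 36 measured genes, counted by the brightest probe set of each, 9 were lower (25%, against 2.37% of all 11963 genes) and 0 higher (1.96% of all genes, 4.34% being called either way), and 34 had a negative change. The list median was -0.24 on the log2 scale, against 0.001 over all probe sets, and the summed signal was 82057 to 89019 on NFYB siRNA arrays and 91812 to 99221 on control arrays. In all 4 pairings 4 were lower (0.744% of all genes), and 6 of the 9 were called with siRNA as a random block. PDIA4, a disulfide isomerase of the ER, read 483 to 627 with NFYB siRNA and 785 to 957 with control siRNA (-0.73, SE 0.0825, adjusted p = 1.17e-07). CNPY3, a co-chaperone, RCN1, a calcium-binding protein of the ER, and SEL1L, the adaptor of ER-associated degradation, fell by 0.72, 0.57 and 0.43 (adjusted p = 3.56e-06, 1.12e-07 and 0.00294), with no overlap between the arms. HSPA5, the ER chaperone BiP, HYOU1, its exchange factor, DNAJB9, its co-chaperone, MANF and ERP29 changed by -0.30, -0.37, -0.54, -0.38 and -0.18, with 4 or 5 of 6 NFYB siRNA arrays below all controls. Without all arrays numbered replicate 1, 2 or 3, the count of lower genes was 3, 5 and 3. At 4 h and 8 h, 7 and 9 genes of the list were lower, where 1.45% and 2.46% of probe sets were lower and 1.48% and 2.18% higher. Of 20 cytosolic heat shock chaperones 1 was called, CHORDC1, which was higher (0.60, adjusted p = 0.00794).

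Genes of the extracellular matrix moved in both directions. Of 40 measured, 7 were lower (17.5%, against 2.37% of all genes) and 2 higher (5%, against 1.96%), with 4 and 1 called in all 4 pairings. The lower genes numbered 5 with siRNA as a random block and 4 without Dharmacon NFYB replicate 2. COL3A1, a fibrillar collagen, read 246 to 286 with the Ambion siRNA and 124 to 135 with the Dharmacon siRNA, against 461 to 549.6 with the Sigma control and 419 to 490.3 with the Dharmacon control. The arms were separate, and the Dharmacon siRNA gave the greater decrease (Ambion minus Dharmacon 1.07, adjusted p = 5.2e-05). The pooled change was -1.38 (SE 0.24, adjusted p = 0.000254). COL5A2, another fibrillar collagen, HAPLN1, which links hyaluronan to proteoglycans, and LOX, which cross-links collagen, fell by 0.75, 0.72 and 0.60, and the collagen chaperone SERPINH1, LOXL1 and FBN1 by 0.48, 0.46 and 0.57, the last 3 not in all pairings. MMP1, the interstitial collagenase, rose, at 70.9 to 148 with NFYB siRNA and 8.55 to 24.8 with control siRNA (log2 2.99, SE 0.431, adjusted p = 1.49e-05). The control signals lie near the bottom of the range, so the size of this change is uncertain.

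Genes of DNA replication and G1/S were higher more often than lower. Of 44 measured, 10 were higher (22.7%, against 1.96% of all genes) and 1 lower (2.27%, near the 2.37% of all genes). The list median was 0.15, and 36 genes had a positive change. The changes were small: MCM3 and MCM10 of the replicative helicase machinery and RFC4 of the clamp loader rose by 0.34, 0.27 and 0.32 (adjusted p = 0.000313, 0.013 and 0.000276) and were called in all 4 pairings. MCM5, CDC6, CCNE2, RFC2, RPA2, CHAF1A and MSH6 rose by 0.22 to 0.48 and were not. RRM2, the small subunit of ribonucleotide reductase, went the other way: 3667 to 4302 with the Ambion siRNA and 3509 to 4141 with the Dharmacon siRNA, against 5997 to 6539 with the Sigma control and 5052 to 5383 with the Dharmacon control (-0.55, SE 0.0824, adjusted p = 2.77e-05). The number of higher genes depended on single arrays. It was 6 without Dharmacon control replicate 1, Sigma control replicate 3 or Dharmacon NFYB replicate 1 or 2, and 4 without Dharmacon NFYB replicate 3, 2 without all arrays numbered replicate 1 or 2 and 0 without those numbered replicate 3. With siRNA as a random block it was 3.

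Among 36 genes of G2/M, a class known for CCAAT boxes, 3 were higher (8.33%, against 1.96% of all genes) and 2 lower (5.56%, against 2.37%), with a median of 0.08. Without all arrays numbered replicate 1, 2 or 3, 2, 0 and 1 were called. CCNB2, cyclin B2, was 3329 ± 244 with NFYB siRNA and 4114 ± 208 with control siRNA (SD, n = 6 each; -0.31, adjusted p = 0.00615, no overlap), and the mitotic kinase NEK2 fell by 0.41. CENPM, of the centromere, BUB1B, of the spindle checkpoint, and BIRC5, survivin, rose by 0.47, 0.30 and 0.28. CDK1, CCNA2, CCNB1 and CDC25C changed by 0.06, -0.12, -0.09 and 0.12 on the probe sets used, with adjusted p of 0.885, 0.823, 0.619 and 0.637. Of 12 members of the E2F and Rb family, E2F3 alone was called (0.30, adjusted p = 0.0215), and that call was lost without Dharmacon NFYB replicate 2 or 3 (adjusted p = 0.0514 and 0.0856) and with only the 12 arrays at 0 h (0.0898). E2F1 changed by 0.28 (95% interval 0.01 to 0.56, adjusted p = 0.301).

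Histone genes were lower where called. Of 16 measured, 4 were lower (25%, against 2.37% of all genes) and 0 higher (against 1.96%). In all 4 pairings 1 was lower (0.744% of all genes). The count of lower genes was 3 with only the 12 arrays at 0 h. It was 1 without all arrays numbered replicate 1, 2 or 3. H1-2, a linker histone, was called in all 4 pairings (2309 ± 258 with NFYB siRNA and 3422 ± 317 with control siRNA, SD, n = 6 each; -0.57, adjusted p = 0.000986). H2BC21, H4C8 and H2BC5 fell by 0.89, 0.55 and 0.50, and genes of this family share sequence, so their probe sets may not be specific. Genes of oxidative phosphorylation and the mitochondrial ribosome were only higher where called, 6 of 52 (11.5%) and 4 of 46 (8.7%), as were 3 of 29 proteasome subunits (10.3%), against 1.96% of all genes. CYCS, cytochrome c, read 8555 to 9870.4 with the Ambion siRNA and 9145 to 10476 with the Dharmacon siRNA, against 4881 to 6302 with the Sigma control and 7233 to 8443 with the Dharmacon control (0.53, SE 0.107, adjusted p = 0.00181). The complex I subunits NDUFB3, NDUFC1 and NDUFB2 rose by 0.26, 0.30 and 0.25 and the proteasome subunits PSMB2 and PSMA2 by 0.34 and 0.22. The mitochondrial ribosome had 2 genes called with siRNA as a random block, 0 without Dharmacon control replicate 2, 1 without Dharmacon control replicate 1 or Dharmacon NFYB replicate 2, and 2 without Dharmacon control replicate 3, Ambion NFYB replicate 2 or 3 or Dharmacon NFYB replicate 3. The proteasome had 2 with siRNA as a random block. In all 4 pairings 2 oxidative phosphorylation genes, 0 of the mitochondrial ribosome and 2 of the proteasome were higher (0.443% of all genes). Without all arrays numbered replicate 1, 2 or 3, the mitochondrial ribosome had 0 called each time. Oxidative phosphorylation then had 1, 1 and 2. The count of oxidative phosphorylation genes was 2 without Dharmacon control replicate 2 and 3 without Ambion NFYB replicate 2 or Dharmacon NFYB replicate 1. It was 6 at 4 h and 16 at 8 h, all higher, where 1.48% and 2.18% of all probe sets were higher.

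Among genes of amino acid and one-carbon metabolism, 4 of 26 were lower (15.4%, against 2.37% of all genes) and 1 higher (3.85%, against 1.96%). ADI1, an enzyme of methionine salvage, read 420.0 to 480.3 with the Ambion siRNA and 298 to 363 with the Dharmacon siRNA, against 989 to 1198 with the Sigma control and 929 to 1201 with the Dharmacon control. The arrays of both control siRNAs lay among each other and the arms did not overlap. The log2 fold change was -1.50 (SE 0.126, adjusted p = 1.46e-10). MTHFD2, of mitochondrial folate metabolism, and PHGDH, which starts serine synthesis, fell by 0.47 and 0.56, and AMD1, of polyamine synthesis, rose by 0.41. AMD1 and GOT1, an aspartate aminotransferase that fell by 0.30, were not called with siRNA as a random block (adjusted p = 0.0756 and 0.0709). The count of called genes was 3 without Sigma control replicate 1 or 3 and 2 without Dharmacon NFYB replicate 2 or 3.

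Genes of apoptosis were called on both sides. Among 29 proapoptotic genes 5 rose and 1 fell, and among 27 anti-apoptotic genes 4 rose and 1 fell, where 1.96% of all genes rose and 2.37% fell. In all 4 pairings 4 proapoptotic and 1 anti-apoptotic genes were higher (0.443% of all genes) and 0 lower (0.744%). The proapoptotic genes called numbered 6 with siRNA as a random block. Without all arrays numbered replicate 1, 2 or 3, they numbered 2, 2 and 4, and the anti-apoptotic genes 1, 1 and 2. The anti-apoptotic genes called numbered 3 with siRNA as a random block, 2 without Dharmacon NFYB replicate 3, and 3 without Dharmacon control replicate 1 or 2 or Dharmacon NFYB replicate 1 or 2. BNIP3, a BCL2 family protein of mitochondria, read 747 to 765 with the Ambion siRNA and 969.5 to 1021 with the Dharmacon siRNA, against 444 to 490.1 with the Sigma control and 446 to 518 with the Dharmacon control (0.85, SE 0.116, adjusted p = 4.9e-06). BID, which links death receptors to mitochondria, and SIVA1, an effector of death receptor signaling, rose by 0.41 and 0.40. SIVA1 had 947 ± 53.4 with NFYB siRNA and 721 ± 73.1 with control siRNA on 203489_at (SD, n = 6 each; adjusted p = 0.00112). TNFRSF10B, a TRAIL receptor and p53 target, fell by 0.44 (adjusted p = 0.00331). On the other side BAG1, a co-chaperone that protects cells, rose by 0.52 (adjusted p = 2.27e-05). BCL2A1, a BCL2 relative (1.02, adjusted p = 0.0288), was higher with the Dharmacon NFYB siRNA, at 299 to 479.8, than with the Ambion siRNA, at 86.6 to 124, where the control arrays read 75.5 to 143. The Ambion and Dharmacon NFYB siRNAs differed there by -1.86 (adjusted p = 1.57e-08).

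Of 12 genes picked from those the study names, PRKCZ, an atypical protein kinase C, was called lower. It read 128 to 131 with the Ambion siRNA and 138 to 160 with the Dharmacon siRNA, against 344 to 448 with the Sigma control and 305 to 427 with the Dharmacon control (-1.42, SE 0.108, adjusted p = 1.53e-11). API5, an apoptosis inhibitor, changed by -0.22 on its brightest probe set (adjusted p = 0.559), where the NFYB siRNAs differed by -0.66 and the control siRNAs by -0.59. On API5 214960_at the change was -0.63 (adjusted p = 0.0178, and 0.072 with siRNA as a random block). MALT1, a paracaspase, and CDC25A changed by -0.18 and 0.21 (adjusted p = 0.429 and 0.584). FOLH1, a folate hydrolase, was near the bottom of the signal range at 15.5 ± 6.95 with NFYB siRNA and 11.7 ± 5.07 with control siRNA (SD, n = 6 each; 0.40, adjusted p = 0.778).

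The change with knockdown at 0 h was then set against the mean of the changes at 4 h and 8 h of OHT, when E2F1 was active and the cells had starved longer. The difference was called at 45 probe sets (0.203%), 9 positive (0.0405%) and 36 negative (0.162%). MMP15 had 8.39 ± 2.16, 178 ± 51.3 and 236 ± 70.1 at 0, 4 and 8 h with NFYB siRNA, and 32.6 ± 11.9, 178 ± 53.3 and 248 ± 32.6 with control siRNA (SD, n = 6 each). The means of the arms lay apart at 0 h and close together at 4 h and 8 h (difference of changes -1.86, SE 0.295, adjusted p = 0.00194). RRM2 likewise had 3894 ± 318, 12573 ± 1051 and 16234 ± 2453 with NFYB siRNA and 5718 ± 567, 13365 ± 718 and 16152 ± 1179.9 with control siRNA (-0.51, SE 0.101, adjusted p = 0.0188). The difference was -1.50 for CDK19, -0.91 for SLCO4C1 and -0.66 for PRKCZ (adjusted p = 0.0232, 0.0188 and 0.0188), and SLCO4C1 and PRKCZ were called lower at 4 h and 8 h too. In the other direction, SLC66A2 rose at 0 h (0.60, adjusted p = 5.67e-08) and was not called at 4 h or 8 h (adjusted p = 0.997 and 0.492, difference 0.55, adjusted p = 0.00055). BAG1, the MYB family gene MYBL1, the blood transcription factor TAL1, the mitochondrial aspartate carrier SLC25A12 and TBC1D12 had differences of 0.47 to 0.59. CDC25C showed the reverse order, with 0.12 at 0 h and 0.81 and 1.42 at 4 h and 8 h (difference -1.0, adjusted p = 1.24e-05). Whether OHT, E2F1 activity or the longer starvation goes with these differences cannot be told apart.

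**Figure D4:**
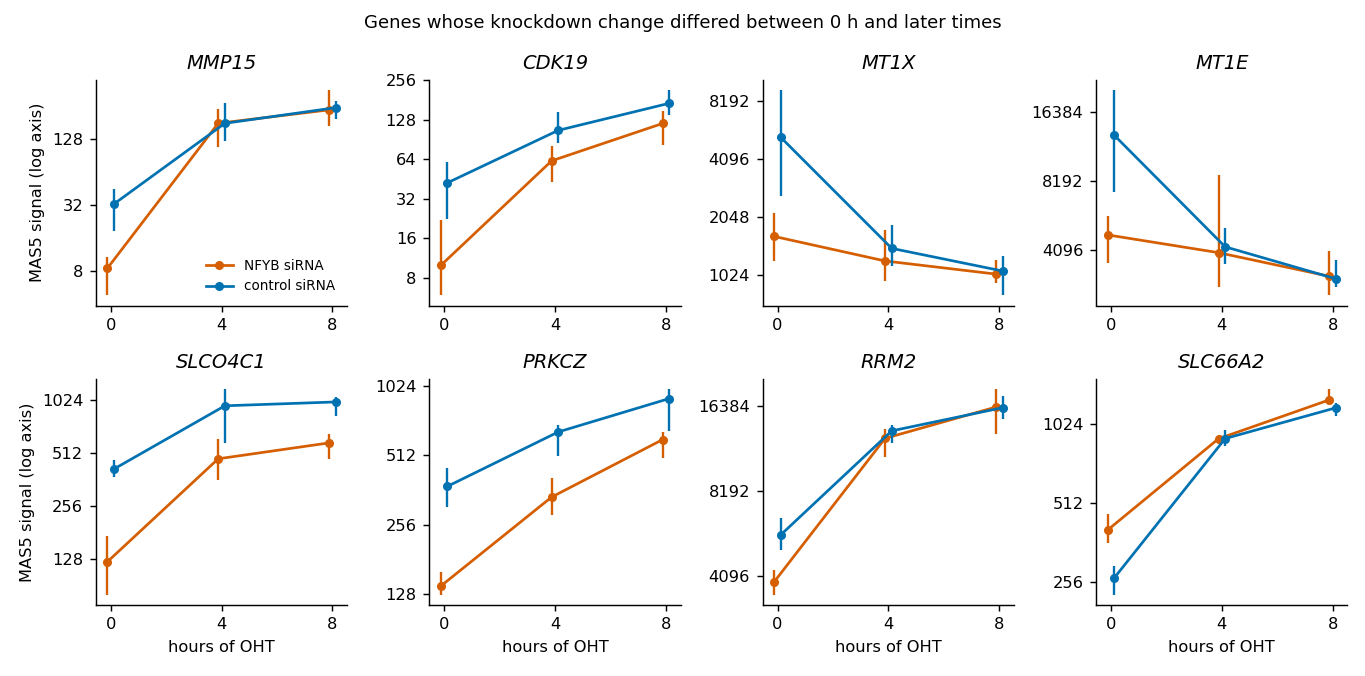
MAS5 signal (vertical axis, log scale) against hours of OHT (horizontal axis) for 8 genes whose change with NFYB siRNA at 0 h differed from that at later times, in cells with NFYB siRNA (orange) and control siRNA (blue). Points are means of 6 arrays and bars run from the lowest to the highest array. MMP15, MT1X, MT1E and RRM2 are lower and SLC66A2 higher with NFYB siRNA at 0 h, and the means of the arms lie closer together at 4 h and 8 h.

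Metallothioneins, small proteins that bind zinc and copper, were also lower at 0 h, and were gathered after MT1X and MT1E had been seen to differ. Of 12 metallothionein probe sets of 8 genes, 8 were lower and 0 higher at 0 h, against 2.0% and 1.58% of all probe sets. In all 4 pairings 2 were lower (0.576% of all probe sets). At 4 h and at 8 h 0 were called, where 2.93% and 4.65% of all probe sets were. For 12 probe sets, 0 is near those shares. MT1X on 204326_x_at read 1214, 1361 and 1449.8 with the Ambion siRNA and 1458, 2110 and 2155 with the Dharmacon siRNA, against 2744, 3560 and 7202 with the Sigma control and 2631, 6272 and 9301 with the Dharmacon control. The arms were separate, while the control arrays spread widely and the highest of each control siRNA was its replicate 3. MT1X was lower by 1.57 (SE 0.219, adjusted p = 7.49e-06), and by 1.25 without the arrays numbered replicate 3 (adjusted p = 0.00439). MT1E and MT1F changed by -1.38 and -1.26 (adjusted p = 3.56e-05 and 0.000385), and MT1F lost its call without the arrays numbered replicate 3 (-0.88, adjusted p = 0.108). The difference from later times was -1.43 for MT1X, -1.28 for MT1E and -1.22 for MT1F (adjusted p = 0.0106, 0.0188 and 0.0481). SLC30A1, the zinc exporter described above, also read highest on replicate 3 of each control siRNA at 0 h and changed by -0.74 and -0.17 at 4 h and 8 h (adjusted p = 0.451 and 0.903), with a difference of -1.84 that was not called (adjusted p = 0.195). Metallothionein genes are near-identical and their probe sets can bind each other's RNA, so the single genes are uncertain. Without the arrays numbered replicate 2, 2 probe sets were called for the difference from later times, and 7 and 3 without those numbered replicate 1 or 3.

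In the other lists, shares are read against 2.37% of all genes lower and 1.96% higher. Of 25 genes of antigen presentation 1 was lower (HLA-F, -0.40, with 2 without Sigma control replicate 2), of 31 interferon response genes 3 were lower (9.68%; IFI6, IFITM3 and IFITM1), of 28 lysosome genes 2 (7.14%; NPC1 and ATP6AP1), of 19 p53 targets 2 (TNFRSF10B and TP53I3), and of 23 glycolysis genes 1 was higher (TPI1, 0.24, with 1 more called, lower, without Ambion NFYB replicate 1 or 2). IFITM1 was not called with siRNA as a random block (adjusted p = 0.125) or with only the 12 arrays at 0 h (0.154). The cell line was checked by its markers. Of 15 mesenchymal and osteoblast markers 11 had a mean above the array median and 0 were called. Leukocyte and endothelial markers had 0 of 10 and 0 of 8 above it, with summed signals of 217 to 335 and 127 to 147 with NFYB siRNA and 202 to 241 and 135 to 211 with control siRNA, and 0 were called. Of 10 epithelial markers 2 lay above the median and CLDN7 was called lower at 2.11 ± 0.605 with NFYB siRNA and 13.5 ± 7.38 with control siRNA, both far below the array median. The CLDN7 call was lost with siRNA as a random block (adjusted p = 0.135), with only the 12 arrays at 0 h (0.0546) and without any 1 of 7 of the 12 arrays (0.0549 to 0.0814).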

How the data were processed

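Each of the 36 cultures was measured on 1 Affymetrix Human Genome array. RNA was prepared with the RNeasy kit, and the authors computed MAS5 signals, which the submitters' processing notes credit to Affymetrix Expression Console (version not given in the sources used here). The deposited values are linear intensities with a mean of 500 per array once 2% of values are trimmed at each end, as was checked on the file. There are no detection calls in the table used here, so dimness was judged by signal, and the number of arrays limits precision. Of 22277 probe sets, 62 controls were left out. Of the 22215 tested, 19064 name 1 gene in the platform annotation, 1043 several and 2108 none. Columns assigned to no sample numbered 0.

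A linear model (limma 3.58.1, R 4.3.3) was run on log2 signals with no offset, as 6 groups (arm by time, 36 arrays), with a variance trend, and p was adjusted over all probe sets by Benjamini-Hochberg. Separate siRNAs used 12 groups. Tables and figures were made in Python 3.11.15. The fit was checked on simulated data with no differences between the siRNAs of an arm, so the check says nothing about such differences. At 0 h it called 28 of 100 changes of 0.5 and 54 of 100 changes of 1 on the log2 scale, with 4 false calls. Genes named are the NF-Y subunits, the 12 greatest increases and decreases (rule in the text), for each list up to 4 called members by smallest p (others of a list are named beside its count), 12 genes picked from those the study names, and the 5 greatest differences each way from later times. Genes named as looked up later, MMP1 by its list, and other probe sets of named genes stand outside the ranking. The arrays, lists and rules were chosen with earlier results of these data known. Alternatives were another offset, quantile normalization, a filter to the upper 60%, no trend, other groupings of siRNAs, a replicate block, the methods' t-test and leaving out arrays. P-values of the 6-group fit measure a spread pooled over all 36 arrays of 1 line. That spread mixes replicates with differences between the siRNAs of an arm. In the fit of 12 groups it is the spread between replicates of an siRNA.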

Additional observations from a re-analysis of the deposited data

Results flagged for a closer look

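In 7 of 204 sets of 6 arrays of named probe sets at 0 h, 1 array stood apart from the other 5 by its gap over the range. Chance flags about 1 set in 20. With NFYB siRNA these were NFYC 202216_x_at (1340 on Dharmacon replicate 1, the next array 1083), CDK19 211706_s_at (21.9 on Dharmacon replicate 1), CDC25A (300.3 on Ambion replicate 3) and CDK1 (3197 on Dharmacon replicate 1). With control siRNA they were NFYA 215720_s_at (8.05 on Sigma replicate 2), NEK2 (1252 on Dharmacon replicate 1) and E2F1 (137 on Dharmacon replicate 2). Dharmacon NFYB replicate 1 holds 3 of the 7.

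The change with NFYB siRNA at 0 h differed from the mean change at 4 h and 8 h by limma's test of the difference for the 15 probe sets listed here. The differences were negative for MMP15 (-1.86), CDK19 (-1.50), MT1X (-1.43), MT1E (-1.28), MT1F (-1.22), CDC25C (-0.998), SLCO4C1 (-0.91), PRKCZ (-0.66) and RRM2 (-0.51). They were positive for MYBL1 (0.59), TAL1 (0.56), SLC66A2 (0.55), SLC25A12 (0.50), TBC1D12 (0.49) and BAG1 (0.47). Adjusted p ran from 1.24e-05 for CDC25C to 0.0481 for TAL1, TBC1D12 and MT1F. NUDT2, given below, also had a called difference. Of the 12 metallothionein probe sets 4 had one, those of MT1X, MT1E and MT1F among them.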

How the results depend on the processing

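For NFYB siRNA against control siRNA at 0 h, 796 probe sets were called. The count was 477 with only the 12 arrays at 0 h, 484 with siRNA as a random block (470 of them among the 796), 201 in all 4 pairings (an alternative added after seeing the data) and 0 with siRNA means, 2 against 2. It was 2503 with 12 groups, 1568 with the Ambion and 2901 with the Dharmacon NFYB siRNA alone, 2514 against the Sigma and 2915 against the Dharmacon control siRNA alone. The unequal-variance t-test gave 196 on linear and 178 on log2 signal after Benjamini-Hochberg; at the methods' unadjusted threshold and ratio it gave 183 and 180. Leaving out arrays gave 222 to 797, with the lowest counts (295, 249 and 222) without all arrays numbered replicate 1, 2 or 3, where 4 arrays an arm are left. Quantile normalization gave 423 higher and 444 lower, against 352 and 444. The difference from later times was called at 45 probe sets, at 96 with siRNA as a random block and at 2 to 7 without the arrays of 1 replicate number. The NFYB siRNAs differed at 1840 probe sets (683 to 1126 without 1 replicate number) and the control siRNAs at 3093 (1600 to 2049). Same-numbered arrays did not deviate together (median r = -0.0125 over 18 pairs, 4 of 12 arrays correlating best with their own number). With a replicate block 752 probe sets were called, 741 of them among the 796. For 102 named probe sets, 0 of 3055 values under the alternatives turned direction with a call, 2549 kept their side of the threshold, 500 lost the call (361 of these with fewer arrays at 0 h, siRNA means or the t-test) and 6 gained it. Signals near the bottom of the range limit KCNA3, CEMIP, MMP1, MMP15, CDK19 211706_s_at, CXCL12, SNAP91, TRPC4 and CLDN7.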

Other observations

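NUDT2, which cleaves dinucleoside polyphosphates and was looked up after its values were seen, was higher with NFYB siRNA at 0 h (755 ± 79.6 with NFYB siRNA and 429 ± 67.1 with control siRNA, SD, n = 6 each; limma log2 change 0.82, adjusted p = 0.00279) and further apart later, by 1.51 at 4 h and 2.0 at 8 h (difference -0.93, adjusted p = 0.0474). Its mean signal with OHT was 856 and 1053 at 4 h and 8 h with NFYB siRNA, and 299 and 270.4 with control siRNA.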
